A study of Mus musculus with 10 samples.

Results

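The genes described here are 10 lymphoid chemokine and lymphotoxin genes: the chemokines Cxcl13, Cxcl12, Ccl19 and Ccl21a, their receptors Cxcr5, Cxcr4 and Ccr7, and the lymphotoxin genes Lta, Ltb and Ltbr. They were taken by symbol from a table of 27919 genes, and all 10 were found there. RNA was measured in 4 tumors with Ly86 overexpression and 3 with the vector as control, all grown from the mouse melanoma cells B16F10. Every mouse of both groups had received 4 rounds of antibodies to PD-1 and CTLA4, so no group was without checkpoint blockade. By the labels, 3 tumors were divided and sequenced as a first and a second piece: the tumors numbered 1 of both groups and Vector tumor 2. The 7 tumors thus gave 10 libraries. Whether each tumor came from its own mouse, the strain and age of the mice, the promoter of the construct and whether the cells were 1 clone are not given in the sources used here. A p-value here measures only how these tumors varied, which may be partly technical.

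In lymph nodes and spleen, stromal cells secrete CXCL13 to draw CXCR5-bearing B cells into follicles, and CCL19 and CCL21 to draw CCR7-bearing T cells and dendritic cells into T cell zones. CXCL12, made mainly by fibroblasts and other stroma, holds cells that carry CXCR4. Lymphotoxin alpha and beta form a membrane complex on lymphocytes that signals through the lymphotoxin beta receptor on stroma, and this receptor acts through the non-canonical NF-kB pathway to maintain production of these chemokines. Ectopic clusters of lymphocytes built on the same circuit, in tumors and inflamed tissue, are known as tertiary lymphoid structures.

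Values are TPM, transcripts per 1000000 of a library, which are scaled by transcript length and keep no record of read depth. The depth of each library is therefore unknown. Differences are Ly86 minus Vector in log2(TPM + 1), with the log2 values of 2 pieces averaged so that the tumor is the replicate, and this scale understates the difference of genes at low levels. Melanoma markers summed to between 14114 and 20490 TPM in Ly86 libraries and to between 10113 and 19536 in Vector libraries, so all 10 libraries carried the labelled cell type. Ly86 itself ran from 49.2 to 81.9 TPM in the Ly86 libraries and from 6.24 to 80.9 in the Vector libraries, the highest Vector value being the first piece of Vector tumor 2. That piece also stood apart in the genes below, and it is shown apart from the second piece throughout. Keratinocyte markers set off another library, the first piece of Ly86 tumor 1.

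None of the 10 genes passed the test between groups. In limma with Benjamini-Hochberg adjustment over the 14556 genes with a mean of at least 1 TPM, 0 of the 8 members tested had an adjusted p under 0.05, against a background of 0% of all genes. Cxcr5 and Lta lay under that minimum and were not tested. At an unadjusted p under 0.05, 3 members stood higher in Ly86 tumors (Cxcl12, Cxcl13 and Ltb) and 0 lower, against 5.78% and 4.97% of all genes (10.8% in either direction). Without the first piece of Vector tumor 2, 4 members stood higher at that level (Cxcr4 besides the former 3), against 11.1% of all genes, and without its second piece 0 did, against 1.16%. With log2 values of the pieces averaged, only Cxcl12 of the 8 had all 4 Ly86 tumors above all 3 Vector tumors, which 4.71% of all genes also had, and 0 members lay wholly below, against 5.75% (10.5% in either direction). A difference above 0 was found for 5 of the 8 members and for 43.8% of all genes. After adjustment, 0 members passed with first pieces only, second pieces only or without the first piece of Vector tumor 2, where 0.00682%, 0.257% and 0.0208% of all genes did. Array weights, which let limma weight each tumor by its fit, called 2 members against 12.6% of all genes. The median difference of the 8 was 0.36, beside -0.037 for all genes tested, and 0.74 once the first piece of Vector tumor 2 was left out, beside -0.037. The members were chosen with results of these tumors known, so these counts describe them and give no independent support.

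**Figure D1:**
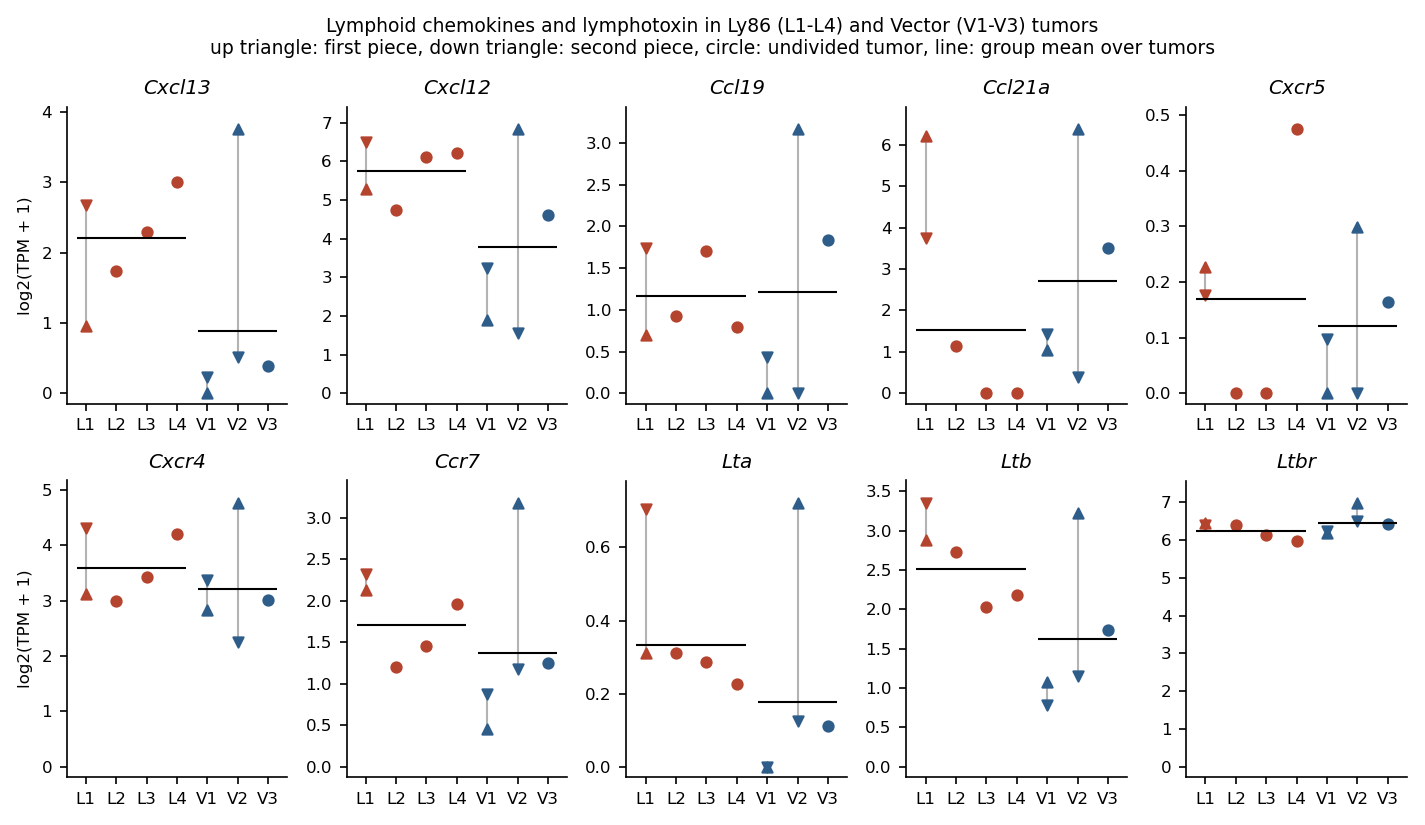
Expression of the 10 genes in log2(TPM + 1) (vertical axes, separate scales) in Ly86 tumors L1 to L4 (red) and Vector tumors V1 to V3 (blue); triangles are the first (up) and second (down) pieces of a divided tumor, joined by a grey line, circles are undivided tumors and black lines are group means over tumors. In 8 of the 10 panels the highest point is the first piece of Vector tumor 2, and only in the Cxcl12 panel do the tumor means of the groups, taken on the log2 scale, not overlap.

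By level, averaged over tumors, the order was Ltbr at 80.9 TPM, Cxcl12 at 45.4, Ccl21a at 13.8, Cxcr4 at 11.03, Ltb at 4.02, Cxcl13 at 3.34, Ccr7 at 2.33, Ccl19 at 1.73, Lta at 0.216 and Cxcr5 at 0.116. Neighbours in this order overlapped in their range over libraries in every case, so no neighbouring pair was separated by its spread. The receptor of lymphotoxin was thus measured at far higher levels than its ligands.

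Cxcl13, the attractant of B cells, was low or absent in all but 1 Vector library. It measured 0.94 and 5.40 TPM in the pieces of Ly86 tumor 1, 2.34 in Ly86 tumor 2, 3.91 in Ly86 tumor 3 and 7.05 in Ly86 tumor 4. The pieces of Vector tumor 1 held 0 and 0.18 TPM, those of Vector tumor 2 held 12.5 and 0.43, and Vector tumor 3 held 0.31. Each Ly86 library was thus above 4 of the 5 Vector libraries and below the remaining one. Per tumor, the mean was 2.22 ± 0.58 log2(TPM + 1) (SD, n = 4) against 0.88 ± 1.10 (SD, n = 3), and Vector tumor 2, at 2.14 as the mean of its pieces, lay inside the Ly86 range. The difference was 1.33 (SE 0.53, limma adjusted p = 0.453), with a two-sided exact permutation p of 0.114 over 35 assignments of tumors, of which the smallest possible is 0.0286. It was 2.68 with a pseudocount of 0.1 (adjusted p = 0.397), 0.62 with first pieces only (adjusted p = 1.00), 2.05 with second pieces only (adjusted p = 0.0544) and 1.81 with array weights (adjusted p = 0.0241). In that fit Vector tumor 3 alone was weighted 22.8, and the other 6 tumors from 0.361 to 0.946.

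Cxcl12, which retains CXCR4-bearing cells and is a product of fibroblasts, showed the widest separation of the 10 genes. Its Ly86 libraries held 38.0 and 89.9 TPM in tumor 1, 25.9 in tumor 2, 67.7 in tumor 3 and 73.8 in tumor 4. Among Vector libraries it was 2.75 and 8.52 TPM in tumor 1, 113 and 1.97 in tumor 2, and 23.4 in tumor 3. On the log2 scale the tumor means did not overlap, although the single highest library was a Vector library. With the pieces averaged as TPM they did overlap, since Vector tumor 2 then held 57.6 TPM against 25.9 in Ly86 tumor 2, and the difference was 1.37 (SE 0.70, limma adjusted p = 0.615). The Ly86 mean was 5.74 ± 0.68 log2(TPM + 1) (SD, n = 4) and the Vector mean 3.80 ± 1.07 (SD, n = 3). The difference of 1.94 (SE 0.52) had a limma adjusted p of 0.437 and an exact permutation p of 0.0571. It ranged from 1.07 without the second piece of Vector tumor 2 to 2.82 without the first, and no alternative gave an adjusted p under 0.05.

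Fibroblast markers moved with Cxcl12 across the libraries. The 10 markers, among them Dcn and Col1a1, summed to between 955 and 2684 TPM in Ly86 libraries and to between 103 and 4675 in Vector libraries. No marker was at 0 throughout a group. Of the 10, 10 were higher in Ly86 tumors, against 43.8% of all genes tested, with a median difference of 1.48. Expressed as a share of that sum, Cxcl12 was 2.71% to 5.12% in Ly86 libraries and 1.91% to 3.18% in Vector libraries. Its TPM spanned 1.97 to 113. Only Vector tumor 3, at 3.18%, reached the Ly86 range of shares, and every other Vector library lay below it. The first piece of Vector tumor 2, with the highest fibroblast sum, was at 2.42%. In the second piece of Vector tumor 2, where Cxcl12 was lowest, fibroblast markers were also lowest. The part of fibroblasts in the Cxcl12 difference was not tested, and in bulk tumors fewer cells of a type and less RNA per cell cannot be told apart.

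Ccl19 and Ccl21a, the T cell zone chemokines, have near-identical copies in the mouse genome, and reads can be assigned to the wrong copy. The sequences shown here, from GENCODE M21 transcripts, mark how little separates them. Over the 402 bases of the Ccl21b coding sequence, Ccl21a differs at 2 positions, T84A and C194T, given as the base of Ccl21a, the position from the first coding base of Ccl21b and the base of Ccl21b. Bases 74 to 204 are shown 5′ to 3′ with these positions in capitals.
Ccl21a: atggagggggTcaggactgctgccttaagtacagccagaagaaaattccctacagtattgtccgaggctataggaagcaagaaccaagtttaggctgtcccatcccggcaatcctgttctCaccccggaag
Ccl21b: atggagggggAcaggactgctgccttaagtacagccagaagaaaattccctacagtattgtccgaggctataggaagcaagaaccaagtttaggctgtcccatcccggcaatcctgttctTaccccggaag
Of the 353 windows of 50 bases in Ccl21b, 71.7% occur unchanged in the Ccl21a transcript. Ccl19 and the pseudogene Ccl19-ps1 differ at 3 of 325 aligned bases, and bases 58 to 128 of the pseudogene transcript hold 2 of the differences, C68A and C118T, again in capitals.
Ccl19: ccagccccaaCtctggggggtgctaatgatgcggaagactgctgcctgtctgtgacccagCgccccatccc
Ccl19-ps1: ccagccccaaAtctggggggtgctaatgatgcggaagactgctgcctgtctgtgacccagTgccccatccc
Another copy of Ccl21, Gm13304, matches the Ccl21a transcript at 832 of 837 bases. Copies are therefore given beside the genes, and their separate values are uncertain.

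Ccl21a separated single libraries and not the groups. It was listed at 72.8 and 12.5 TPM in the pieces of Ly86 tumor 1, 1.20 in Ly86 tumor 2 and 0 in Ly86 tumors 3 and 4. Vector tumor 1 had 1.05 and 1.70 TPM, Vector tumor 2 had 82.0 and 0.32, and Vector tumor 3 had 10.3. The highest values came from 1 library of each group. Values of 0 occurred in Ly86 tumors only, and the lowest Vector value was 0.32 TPM. The difference was -1.18 (SE 1.21, limma adjusted p = 0.758, exact permutation p = 0.457), with a 95% interval from -3.97 to 1.61. Ccl21b reached 24.6 and 13.8 TPM in the libraries highest for Ccl21a and at most 1.99 in the other 8. With Ccl21a, Ccl21b and Gm13304 summed, the difference was -1.10 (adjusted p = 0.789). For Ccl21a alone it shrank to -0.18 once the first piece of Vector tumor 2 was dropped, and reached -2.33 once Ly86 tumor 1 was (adjusted p = 0.485).

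Keratinocyte markers were high in the libraries that held most Ccl21a. The 6 markers summed to 2419 TPM in the first piece of Ly86 tumor 1, 663 in the first piece of Vector tumor 2, 109 in the second piece of Ly86 tumor 1 and 48.0 in Vector tumor 3, the 4 libraries in which Ccl21a was above 10 TPM. In the other 6 libraries the sum was at most 24.6. Krt5, a keratin of basal epidermis, was listed at 0 in Ly86 tumors 3 and 4, where Ccl21a was also at 0, and in the second piece of Vector tumor 2. Over the groups, the sum ranged from 1.02 to 2419 TPM in Ly86 and from 0.78 to 663 in Vector libraries. As a share of that sum, Ccl21a was 0 to 13.6% in Ly86 libraries and 6.92% to 41.0% in Vector libraries. The 41.0% came from the second piece of Vector tumor 2, where the sum was 0.78 TPM. Lymphatic endothelium is the vessel lining that secretes CCL21 in skin. Its 6 markers summed to between 50.5 and 77.3 TPM in Ly86 libraries and to between 34.2 and 116 in Vector libraries. Most of the sum came from Pdpn, which fibroblasts and other cells also express. Of the 4 tested, Lyve1 (2.09) and Pdpn (0.35) stood higher in Ly86 tumors, and Flt4 (-0.28) and Prox1 (-0.065) lower. Of those too low to be tested, Reln stood higher (0.13) and Mmrn1 lower (-0.40). The part of skin or lymphatic tissue in the Ccl21a values was not tested.

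Ccl19, the other CCR7 ligand, was low in both groups. It measured 0.62 and 2.34 TPM in Ly86 tumor 1, 0.90 in tumor 2, 2.25 in tumor 3 and 0.74 in tumor 4, against 0 and 0.35 in Vector tumor 1, 7.97 and 0 in Vector tumor 2 and 2.57 in Vector tumor 3. The groups overlapped, with a difference of -0.051 (SE 0.43, limma adjusted p = 0.982, exact permutation p = 0.914) and a 95% interval from -1.05 to 0.95. The pseudogene Ccl19-ps2 was listed above Ccl19 in all 5 Ly86 libraries, such as 6.56 against 2.25 TPM in Ly86 tumor 3, and among Vector libraries only in the first piece of tumor 2. Its sequence was not compared with that of Ccl19 here, so how readily their reads could be exchanged is unknown. Ccl19-ps1 was above 0 in Ly86 tumor 4 alone. When Ccl19, Ccl19-ps1 and Ccl19-ps2 were summed, the Ly86 libraries held 2.62 to 8.81 TPM and the Vector libraries 0 to 19.6. The sign then turned, to a difference of 1.09 (adjusted p = 0.516), mostly through Ccl19-ps2, so no direction is given for Ccl19.

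**Figure D2:**
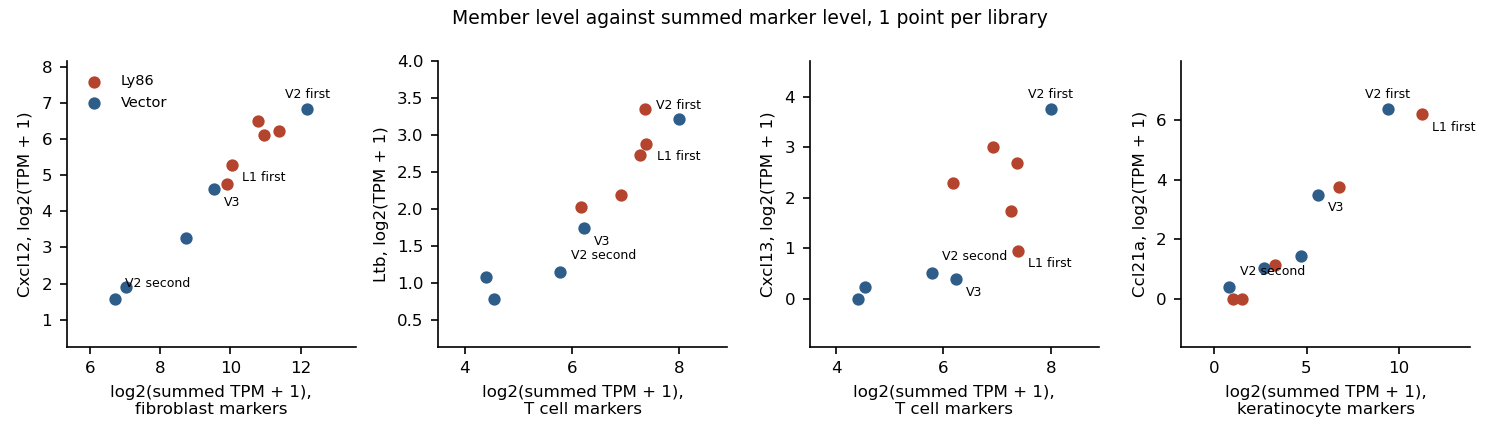
Level of 4 member genes in log2(TPM + 1) (vertical axes) against the summed TPM of a marker list in log2(sum + 1) (horizontal axes), 1 point per library, Ly86 in red and Vector in blue. Cxcl12 with fibroblast markers, Ltb with T cell markers and Ccl21a with keratinocyte markers lie along a band. Where Ccl21a was above 0, it was 3.01% to 41.0% of the keratinocyte sum. Cxcl13 varied at similar T cell sums, between groups and within 1 tumor. It was 0.31 and 3.91 TPM at sums of 73.9 in Vector tumor 3 (V3) and 71.1 TPM in Ly86 tumor 3. In the pieces of Ly86 tumor 1 it was 0.94 and 5.40 TPM at sums of 166 and 164 TPM.

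The chemokine receptors differed less between groups than Cxcl12 and Cxcl13. Ccr7, carried by naive and central memory T cells and by migrating dendritic cells, was 3.38 and 3.99 TPM in Ly86 tumor 1, 1.30 in tumor 2, 1.75 in tumor 3 and 2.89 in tumor 4. Vector libraries held 0.37 and 0.84 TPM in tumor 1, 8.09 and 1.26 in tumor 2 and 1.38 in tumor 3. The groups overlapped, and the difference was 0.35 (SE 0.41, limma adjusted p = 0.801, exact permutation p = 0.571), with a 95% interval from -0.59 to 1.28. Its size depended on Vector tumors 1 and 2, at -0.0042 without the former and 0.75 without the latter.

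Cxcr4, the CXCL12 receptor found on most leukocytes and on some tumor cells, was the highest of the receptors for chemokines. It measured 7.71 and 18.8 TPM in Ly86 tumor 1, 6.96 in tumor 2, 9.74 in tumor 3 and 17.4 in tumor 4, and 6.15 and 9.36 in Vector tumor 1, 26.3 and 3.74 in Vector tumor 2 and 7.06 in Vector tumor 3. By library, the Ly86 values lay within the Vector range, from 3.74 to 26.3 TPM. By tumor, on the log2 scale, the Vector values lay within the Ly86 range. The difference was 0.38 (SE 0.28, limma adjusted p = 0.660, exact permutation p = 0.343), with a 95% interval from -0.28 to 1.03. With first pieces only it was -0.10 (adjusted p = 1.00), and with second pieces only 0.86 (adjusted p = 0.240).

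Cxcr5, which guides B cells and follicular helper T cells to CXCL13, was near the lower limit of the table. It was listed at 0 in 4 of 10 libraries and reached at most 0.39 TPM, in Ly86 tumor 4. The other Ly86 values were 0.17 and 0.13 TPM in tumor 1 and 0 in tumors 2 and 3, and the Vector values were 0 and 0.07 in tumor 1, 0.23 and 0 in tumor 2 and 0.12 in tumor 3. With a step of 0.01 TPM in the table and unknown depth, a group difference was not detectable at these levels (exact permutation p = 0.771). Among markers of B cells, Ms4a1, which encodes CD20, was at most 0.14 TPM in any library, while Cd79b and Cd22, of the B cell receptor complex and its inhibitor, reached 5.41 and 6.70 TPM in the first piece of Vector tumor 2. The 12 B cell markers summed to between 17.3 and 58.3 TPM in Ly86 libraries and to between 2.70 and 44.2 in Vector libraries. Of the 3 tested, 3 were higher in Ly86 tumors and 0 lower, against 43.8% of all genes tested above 0, with a median difference of 0.37. Among the markers too low to be tested, Cd79a (-0.30), Fcer2a (-0.086) and Pax5 (-0.049) stood lower and the rest higher. Cd79a was 0.17 to 0.31 TPM in Ly86 libraries and 0.38 to 0.91 in Vector libraries. Ighm, the antibody heavy chain gene, ran from 11.98 to 54.02 TPM in Ly86 libraries and from 0.67 to 29.3 in Vector libraries. Its difference of 2.47 (SE 0.54, limma adjusted p = 0.437) was larger than that of any of the 10 genes. The 54.02 TPM of Ighm was most of the highest Ly86 sum, 58.3 TPM. The part of B cell content in the member values was not tested.

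Lymphotoxin ligands were low, with Ltb above Lta in every library. Ltb, the membrane anchor of the complex, measured 6.40 and 9.26 TPM in Ly86 tumor 1, 5.64 in tumor 2, 3.08 in tumor 3 and 3.55 in tumor 4. Vector tumor 1 had 1.12 and 0.72 TPM, Vector tumor 2 had 8.32 and 1.22, and Vector tumor 3 had 2.35. All 5 Ly86 libraries lay above 4 of the 5 Vector libraries, and the first piece of Vector tumor 2 lay among them. Per tumor the mean was 2.52 ± 0.50 log2(TPM + 1) (SD, n = 4) against 1.62 ± 0.64 (SD, n = 3). The difference of 0.90 (SE 0.37) had a limma adjusted p of 0.455 and an exact permutation p of 0.114. It was 0.44 with first pieces only (adjusted p = 1.00), 1.35 with second pieces only (adjusted p = 0.0979), 0.55 without Vector tumor 1 (adjusted p = 0.861) and 0.86 with array weights (adjusted p = 0.0486).

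T cell markers moved with Ltb. The 13 markers summed to between 71.1 and 166 TPM in Ly86 libraries and to between 20.2 and 254 in Vector libraries, with none at 0 throughout a group. Of the 13, 12 were higher in Ly86 tumors, against 43.8% of all genes tested, with a median difference of 1.17. As a share of that sum, Ltb was 2.96% to 5.63% in Ly86 libraries and 2.25% to 5.54% in Vector libraries. The shares thus overlapped where the TPM values of 4 Vector libraries did not reach the Ly86 range. Tcf7, the marker that stood lower in Ly86 tumors (-0.27), held 11.2 and 13.2 TPM of the sums of 20.2 and 22.4 in the pieces of Vector tumor 1. The shares in that tumor therefore depend largely on this gene. The part of T cell content in the Ltb difference was not tested. Cxcl13 was 0.566% to 5.87% of the T cell sum in Ly86 libraries and 0 to 4.93% in Vector libraries, with Vector tumor 3 at 0.420%. These shares overlapped too. The first piece of Ly86 tumor 1, at 0.566%, lay below both pieces of Vector tumor 2 (4.93% and 0.795%) and the second piece of Vector tumor 1 (0.805%). The second piece of Ly86 tumor 1 was at 3.29%. As a share of summed macrophage and monocyte markers, Cxcl13 was 0.0519% to 0.268% in Ly86 libraries and 0 to 0.247% in Vector libraries. The part of either cell type in the Cxcl13 values was not tested.

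Lta, the secreted subunit shared by soluble and membrane lymphotoxin, was 0.24 and 0.63 TPM in Ly86 tumor 1, 0.24 in tumor 2, 0.22 in tumor 3 and 0.17 in tumor 4. It was listed at 0 in both pieces of Vector tumor 1, at 0.65 and 0.09 TPM in those of Vector tumor 2 and at 0.08 in Vector tumor 3. The order resembled that of Ltb, with 4 Vector libraries under all Ly86 libraries and 1 above them. The exact permutation p of the tumor means was 0.257, with a difference of 0.15.

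Ltbr, the lymphotoxin beta receptor, is expressed by stromal, myeloid and many tumor cells, and was the most abundant of the 10 transcripts. Its Ly86 values were 86.8 and 83.5 TPM in tumor 1, 83.9 in tumor 2, 69.8 in tumor 3 and 61.4 in tumor 4, and its Vector values 71.4 and 74.9 in tumor 1, 126 and 90.0 in tumor 2 and 84.7 in tumor 3. Both groups covered much the same range, with the first piece of Vector tumor 2 alone above 100 TPM. The difference was -0.22 (SE 0.17, limma adjusted p = 0.652, exact permutation p = 0.343), and its 95% interval ran from -0.61 to 0.16.

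**Figure D3:**
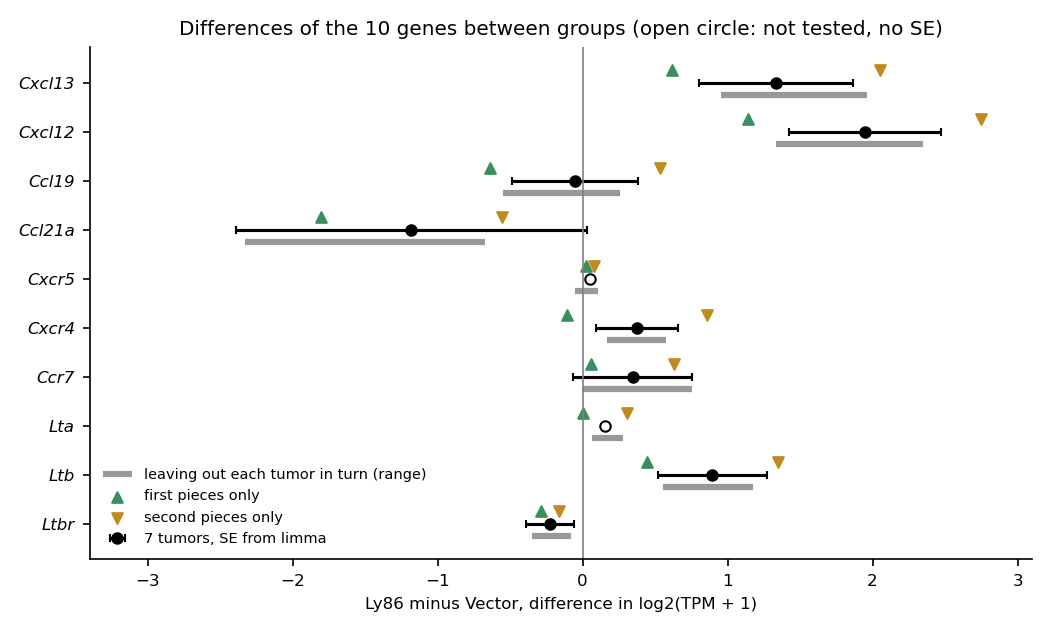
Ly86 minus Vector difference in log2(TPM + 1) (horizontal axis) for each of the 10 genes, as the limma estimate with SE over 7 tumors (black, open where not tested), with the range when each tumor is left out in turn (grey bar) and the values from first (green) or second (amber) pieces only. For each gene the second pieces give a higher value than the first pieces, as for Cxcl12 at 2.75 against 1.14.

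The pieces of Vector tumor 2 differed more from each other than the groups did. Of the 8 tested members, 7 were at least 1 log2 unit higher in its first piece, against 16.8% of all tested genes, and 0 were that much lower, against 2.44%. The exception, Ltbr, differed by 0.48. The gap was 5.98 log2 units for Ccl21a, 5.27 for Cxcl12, 3.24 for Cxcl13, 3.17 for Ccl19, 2.53 for Cxcr4, 2.07 for Ltb and 2.01 for Ccr7, beside a median of -0.0057 over all genes. In the first piece of this tumor fibroblast markers summed to 4675 TPM, macrophage markers to 5068 and T cell markers to 254, and in the second to 103, 359 and 54.1. The part of tissue makeup in these gaps was not tested.

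Ly86 tumor 1 showed a smaller split that ran both ways. Its second piece held more Cxcl13, Ccl19, Cxcl12 and Cxcr4, each by at least 1 log2 unit, where 4.03% of all genes did so. Ccl21a went the other way, 2.46 log2 units higher in the first piece, as 2.30% of all genes were by 1 unit or more. In Vector tumor 1, 1 member, Cxcl12, was lower in the first piece by at least 1 unit, at -1.34, against 3.87% of all genes, and 0 were higher, against 1.29%. Each divided tumor is 1 tumor, so these gaps have no replicate and no test.

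**Figure D4:**
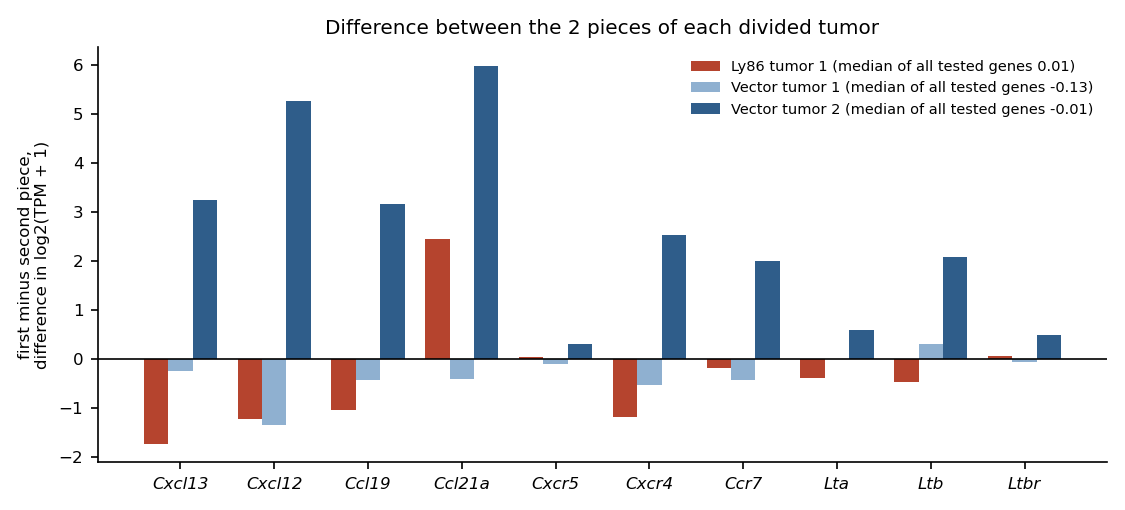
First minus second piece in log2(TPM + 1) (vertical axis) for the 10 genes in the 3 divided tumors, with the median over all tested genes of each tumor in the legend. Bars of Vector tumor 2 (dark blue) are above 0 for all 10 genes and reach 5.98 for Ccl21a, whereas Ly86 tumor 1 (red) has Ccl21a at 2.46 and Cxcl13 at -1.72.

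Other genes of the circuit were taken from 5 lists with 66 entries, chosen with earlier results of these tumors known. In limma 0 of them passed over all genes in either direction. Among atypical receptors and other chemokines of lymphoid tissue, 8 of 10 tested genes stood higher in Ly86 tumors and 2 lower, with a median difference of 0.77 beside -0.037 for all genes tested. Counts of genes higher, here and in the lists below, stand against 43.8% of all genes tested with a difference above 0. With the first piece of Vector tumor 2 dropped, the 5 list medians, in the order of description here, were 1.16, 0.96, 0.094, 0.72 and 1.03. The median of all genes tested was then -0.037. Ackr1, a decoy receptor of venules that carries chemokines across endothelium, differed by 0.94 (SE 0.30, limma adjusted p = 0.437), and Cxcr6, the receptor of tissue-resident T cells, by 1.31 (SE 0.44, adjusted p = 0.437). Ccl25, best known as a thymic and gut chemokine, stood lower at -0.36 (SE 0.12, adjusted p = 0.441).

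Of the TNF superfamily partners of lymphotoxin, all 8 tested genes of 11 listed stood higher, with a median of 0.71. Tnf, the cytokine encoded beside Lta and Ltb, differed by 1.22 (SE 0.47, limma adjusted p = 0.449), its receptor gene Tnfrsf1b by 1.15 (SE 0.42, adjusted p = 0.441) and Tnfrsf11b, which encodes the decoy osteoprotegerin, by 0.87 (SE 0.23, adjusted p = 0.437). The list without a shift was non-canonical NF-kB signaling, the pathway below the lymphotoxin beta receptor, with 4 genes higher and 4 lower and a median of 0.018. Relb, a subunit of its transcription factor, differed by 0.46 (SE 0.21, adjusted p = 0.481), Birc3, a ubiquitin ligase of the receptor complex, by 0.42 (SE 0.25, adjusted p = 0.570) and Traf3, an inhibitor of the pathway, by -0.30 (SE 0.19, adjusted p = 0.606).

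High endothelial venule and homing genes formed a list in which 10 of 12 tested genes stood higher and 2 lower, with a median of 0.34. Itgb7, an integrin chain of homing lymphocytes, differed by 1.46 (SE 0.36) and Cd34, a sialomucin of vessels and fibroblasts, by 1.00 (SE 0.32), while Itga4, the alpha 4 integrin chain, stood lower at -0.69 (SE 0.22), each with a limma adjusted p of 0.437. The genes most particular to high endothelial venules were barely measured. Glycam1 reached at most 1.34 TPM, in the first piece of Vector tumor 2, and Madcam1 at most 0.55 TPM. Cr2 and Fcer2a, which mark follicular dendritic cells and B cells, reached at most 0.25 and 0.29 TPM. Among organizer stroma and inducer genes all 7 tested genes stood higher, with a median of 0.66. Cd40, a receptor of B cells and myeloid cells, differed by 1.31 (SE 0.38, adjusted p = 0.437), Il7r by 1.11 (SE 0.34, adjusted p = 0.437) and Id2, a factor of innate lymphoid and dendritic cells, by 0.30 (SE 0.10, adjusted p = 0.441).

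**Figure D5:**
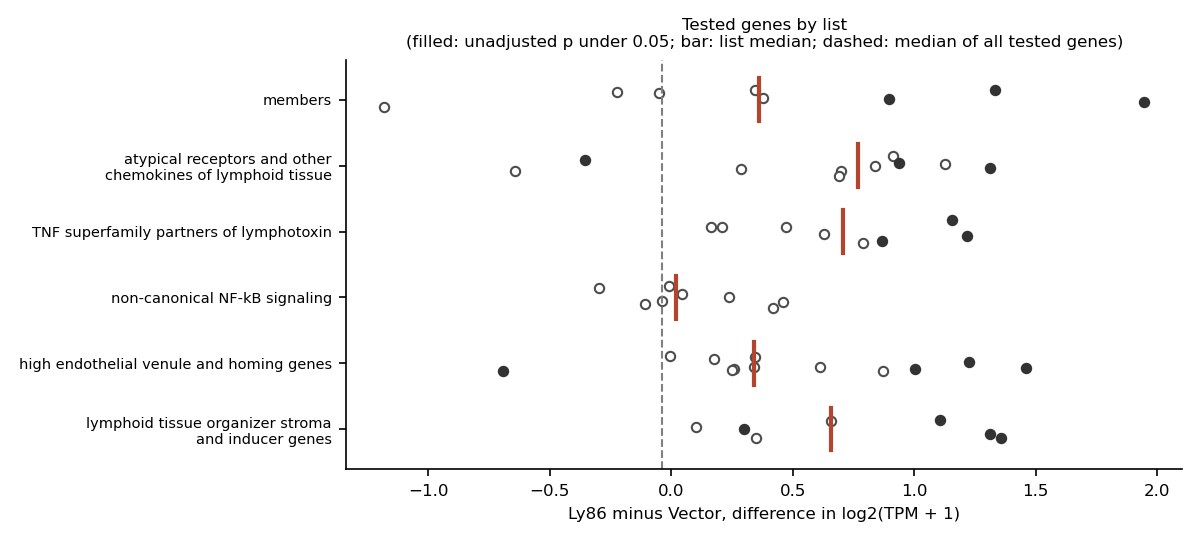
Ly86 minus Vector difference in log2(TPM + 1) (horizontal axis) of the tested members and of the tested genes of 5 related lists, 1 point per gene, filled where the unadjusted limma p is under 0.05, with list medians as red bars and the median of all tested genes dashed. The medians lie between 0.018 for non-canonical NF-kB signaling and 0.77 for atypical receptors and other chemokines, and no gene passed after adjustment over all genes.

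Markers of other cell types give the setting of these values. Macrophage markers summed to between 1812 and 3630 TPM in Ly86 libraries and to between 359 and 5068 in Vector libraries. Of these markers, 10 of 10 were higher in Ly86 tumors, against 43.8% of all genes tested, with a median difference of 1.24. Follicular helper T cell markers summed to between 11.1 and 26.9 TPM in Ly86 and between 3.61 and 39.9 in Vector libraries, although Il21, the cytokine of that subset, was at most 0.11 TPM. Migratory dendritic cell markers summed to between 172 and 237 TPM in Ly86 and between 189 and 290 in Vector libraries. Most of the sum came from Fscn1, at 138 to 273 TPM, a gene that tumor cells also express. Fscn1 stood lower in Ly86 tumors, at -0.37. Of the 7 markers tested, 5 were higher and 2 lower, against 43.8% of all genes tested above 0, with a median difference of 0.42. Blood endothelium markers summed to between 106 and 179 TPM in Ly86 and between 73.5 and 414 in Vector libraries, with a median difference of 0.037. The list of lymph node stroma summed to between 29.1 and 54.5 TPM in Ly86 and between 7.27 and 76.2 in Vector libraries, mainly through Bst1 and Clu, which other cells also express.

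Genes with the pattern most like a member were sought by Pearson correlation of log2(TPM + 1) over the 7 tumors. The tumors differ in group and in tissue makeup, and such differences enter these correlations. Cxcl12 was matched most closely by Cpxm1, a secreted carboxypeptidase-like gene (r = 0.996, rho = 0.964), and by Lox, the collagen cross-linking enzyme (r = 0.995, rho = 0.964). The nearest genes to Cxcl13 were Cd302, a lectin of myeloid cells (r = 0.988, rho = 0.964), and Tmeff2 (r = 0.981, rho = 1). Ltb ran closest to Lmo4 (r = 0.983, rho = 1) and B3gnt8 (r = 0.978, rho = 0.775), and Ccl21a to Cysrt1 (r = 0.989, rho = 0.964) and Ints6l (r = 0.983, rho = 0.955). For the receptors the nearest were Pip4k2a (r = 0.983) and Stam (r = 0.963) for Cxcr5, Hs3st6 (r = 0.991) and Plxdc2 (r = 0.976) for Ccr7, and Zfp820 (r = 0.990) and Chga (r = 0.967) for Cxcr4. Ccl19 was nearest to Ntpcr (r = 0.956) and Pecr (r = 0.938). Lta was nearest to Fcho1 (r = 0.991) and Vopp1 (r = 0.974), and Ltbr to Taf5l (r = 0.980) and Ell (r = 0.976). These are the top 2 for each gene among at least 12946 correlations over few tumors, Gm and Rik names left out, and are given as a description.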

How the data were processed

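The authors deposited a single table of log2 values, one column per library. Per the submitters' processing notes, STAR 2.7.10b, RSEM 1.3.3 and mouse build mm39 were used, and other steps are not given in the sources used here. The log2(TPM + 1) scale was read from the values: raising 2 to each and subtracting 1 gave multiples of 0.01 TPM (within 1e-04 hundredths) for 99.9% of them. Libraries were mapped by title, and all columns were used.

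Genes with a mean of at least 1 TPM over tumors entered limma 3.58.1 (lmFit, eBayes with trend, R 4.3.3), adjusted over all 14556 genes, threshold 0.05. It was run on simulated data with independent values per tumor and no divided pieces, so that check does not cover differences between pieces. Single genes also had two-sided exact permutation tests. The design had assumed TPM, and log2(TPM + 1) needed no other test. Members and lists were chosen with earlier results of these data known. Named were all members, the 3 genes of each pathway list with the smallest unadjusted p, and the 2 genes most correlated with each member, Gm and Rik names left out. Copies were compared with GENCODE M21 transcripts, of an earlier build than mm39, so no coordinates are printed. Figures used matplotlib 3.10.9 in Python 3.11.15.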

Additional observations from a re-analysis of the deposited data

How the results depend on the processing

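The alternatives changed the pseudocount (0.1 or 0.5), the filter (none, or 5 TPM, which dropped Cxcl13, Ccl19, Ccr7 and Ltb), the scaling (median of ratios), the handling of pieces (averaged as TPM, a random effect of tumor, or left out), the weights, the block and, in turn, which tumor was absent. Leaving out the first piece of Ly86 tumor 1 and summing gene copies were added after the data were seen. Cxcl12, Cxcl13, Ccl21a, Lta, Ltb and Ltbr kept their direction in every alternative run. The Ccl19 difference turned positive with pseudocounts of 0.1 (0.67) and 0.5 (0.092), the random effect (0.052), second pieces only (0.54), with the first piece of Vector tumor 2 (0.48) or of Ly86 tumor 1 (0.080) dropped, and with copies summed (1.09), and ran from -0.55 to 0.26 when each tumor was left out. Cxcr4 turned negative with first pieces only (-0.10) and without the second piece of Vector tumor 2 (-0.046), and Cxcr5 in the latter (-0.0012). Leaving out tumors gave -0.0042 to 0.75 for Ccr7 and -0.053 to 0.10 for Cxcr5. Array weights called 2 members, Cxcl13 (1.81) and Ltb (0.86), among 1832 genes, and the fit of the weights stopped before its convergence tolerance. Otherwise 0 members passed, and the count over all genes was 37 with second pieces only, 1 with first pieces only, 3 with the first piece of Vector tumor 2 dropped, and 0 to 2 when each tumor was left out. The cause was not tested. Same-numbered tumors did not deviate together (correlations of -0.17, -0.11 and -0.31). With the tumor number as a replicate block, 0 genes passed, Cxcl12 differed by 1.78, and Ccl19 turned to 0.070. Unknown depth limits Lta, Cxcr5 and Ccl19 most.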

Other observations

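Ackr4 and Mmrn1 were singled out after their values were seen. Ackr4, a scavenging receptor that clears CCL19 and CCL21, was 3.32 TPM in the first piece of Vector tumor 2 and 2.63 in the first piece of Ly86 tumor 1, the libraries highest for Ccl21a, and at most 0.72 TPM in the other 8. Mmrn1, a marker of lymphatic endothelium, was 4.84 and 2.34 TPM in the same libraries and at most 0.77 TPM in the other 8. Prox1, the defining factor of that cell type, did not share this order and ranged from 0.87 to 1.88 TPM over all libraries, with 1.08 TPM in the first piece of Vector tumor 2.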
